A study of Mus musculus with 6 samples.

Results

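The postmitotic projection neuron genes are 44 genes named as a module of the young excitatory neurons of the cortex. They were chosen with earlier results of these data known. A gene was counted as measured where a probe of the array carried its symbol as the only gene symbol in the platform annotation. This held for 36 of the 44 genes, among 6041 genes so named on the array, and they had 38 of the 6856 probes of the table. Tubb3, Stmn2, Mapt, Rbfox3, Nhlh2, Lmo3, Rorb and Bhlhe22 had no probe so named. The 36 genes comprised 17 of 21 transcription factors and their cofactors, 15 of 18 cytoskeletal and neurite genes, and 4 of 5 genes in neither group. The RNA came from neocortex of null mutant mouse embryos at embryonic day 14, on a C57BL/6 background, which the labels call synaptically silent. It was set against 1 pool of neocortex RNA from 6 normal animals of the same background and day. Each of 6 arrays of 2 colours held 1 mutant sample and the pool, with the mutant in cy3 on replicates 1, 2 and 3 and in cy5 on replicates 4, 5 and 6. The pool is 1 control sample, so the spread among normal embryos is not part of any error given here.

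Projection neurons are the glutamatergic neurons that send axons out of their cortical area. They are born near the ventricle, migrate outward and settle in layers, and each layer is marked by its own transcription factors. Once a precursor has left the cell cycle, bHLH factors of the Neurod family hold it on the neuronal path. At the same time tubulin-binding proteins, neurofilaments and growth cone proteins build its axon and dendrites. At this embryonic stage the preplate and the deep layers are being formed, while most neurons of the upper layers are not yet born.

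Every value below is a log ratio of mutant over pool as deposited, read on the log2 scale. Neither the base nor the direction is stated in the sources used here, so values above 0 mean higher RNA in mutants only if the ratios had already been turned for the dye, the reading used unless stated. Under the other reading every array holds cy5 over cy3, and replicates 1 to 3 have to be turned. The mutant effect is then the mean with the mutant in cy5 minus the mean with the mutant in cy3, divided by 2. Both readings are given for the members the results turn on. Array medians were 0.05, 0.04, -0.23, -0.13, 0.04 and -0.0049 on replicates 1 to 6, and standard deviations ran from 0.35 on replicate 2 to 1.09 on replicate 3. Replicates 3 and 4 stood apart, with a Pearson correlation of 0.59 with each other over all probes and of -0.08 to -0.37 with the other arrays, so main results are also given without them. A ratio gives no level, so the neuronal markers could not be used to check the tissue, and in bulk RNA fewer neurons and less RNA per neuron cannot be told apart.

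No projection neuron gene differed between mutant and pool past the threshold. The limma fit, with the dye orientation as a term, covered 37 probes of 35 member genes, since the neurofilament gene Nefl had only 3 values. Of these 37 probes 0 had an adjusted p under 0.05, where the background was 0% of 4958 probes, and the smallest adjusted p among members was 0.921. Member probes with an unadjusted p below 0.05 numbered 0, beside 1.77% of all probes. Under the other reading 0 of 37 passed, again beside 0% of all probes, and 2 lay under an unadjusted p of 0.05, which is 5.41% beside a background of 4.6%. Both were cytoskeletal genes, Ina and Crmp1, and both had positive estimates, as had 2.5% of all probes at that limit. These data allow moderate differences in either direction for most members: the 95% intervals had a median width of 0.79, from 0.49 for Pou3f3 to 1.44 for Calb2.

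Most members lay slightly below 0 in the fit of all 6 arrays. Of 35 genes 25 had negative estimates, or 71.4%, beside 56.9% of 4414 genes, and the median was -0.085 beside -0.033 for all genes. Without replicates 3 and 4 this lean was no longer seen, with 12 of 34 genes below 0, or 35.3%, beside 36.9% of all genes, and a median of 0.028 beside 0.046. Under the other reading 26 of 35 genes lay above 0, or 74.3% beside 53%, with a median of 0.062 beside 0.016. When that pair was also left out, 17 of 34 genes lay above 0, beside 48% of all genes.

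**Figure D1:**
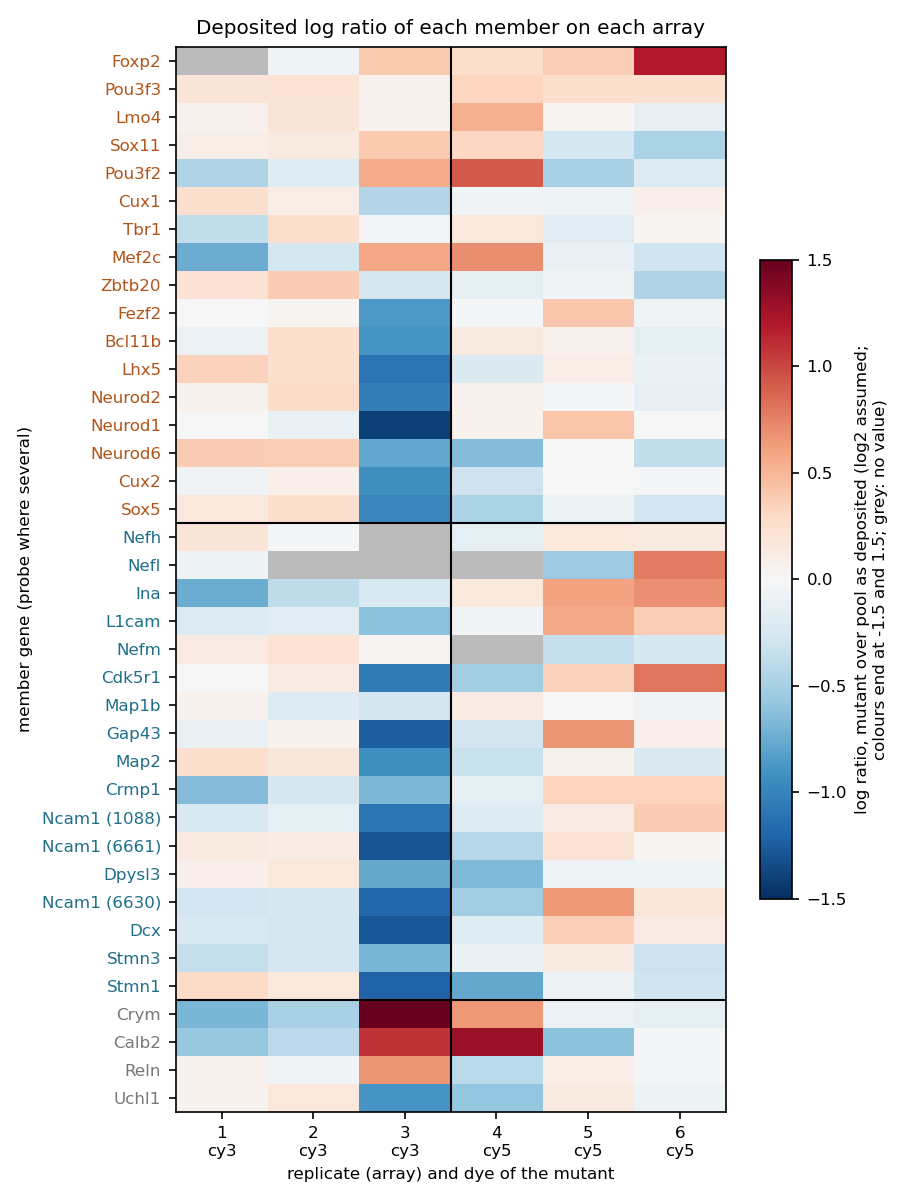
Log ratio of each member probe (rows) on each array (columns), with transcription factors at the top, cytoskeletal and neurite genes in the middle and genes of neither group at the bottom. Red is above 0, blue below 0 and grey marks no value; on replicate 3 most rows are blue, with a median of -0.68 over 34 genes, while Crym and Calb2 are red there at 1.54 and 1.08.

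Among the factors of deep layers no member stood clear of 0. Tbr1, the T-box factor of layer 6 and subplate neurons, lay at -0.37, 0.24, -0.020, 0.16, -0.17 and 0.034 on replicates 1 to 6. Its signs were mixed within each dye orientation, and its estimate was -0.020 ± 0.13 (SE, n = 6), or 0.030 under the other reading. For Bcl11b, which directs subcortical axon growth, the values were -0.092, 0.25, -0.88, 0.13, 0.066 and -0.14. The upstream subcortical factor Fezf2 had -0.0094, 0.038, -0.86, -0.032, 0.41 and -0.054. In both genes replicate 3 was the lowest by far, and the other 5 arrays stayed between -0.14 and 0.41. Bcl11b had an estimate of -0.11 ± 0.16 (SE, n = 6), and 0.021 without replicates 3 and 4. For Fezf2 the estimate was -0.085 ± 0.16 (SE, n = 6), and 0.095 without that pair. The SoxD factor Sox5, which times the birth of deep-layer neurons, was below 0 on replicates 3 to 6, at -0.99, -0.48, -0.081 and -0.28, and above 0 on replicates 1 and 2, at 0.15 and 0.25. Its estimate was -0.24 ± 0.19 (SE, n = 6), and 0.011 without replicates 3 and 4.

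Foxp2, a forkhead factor of layer 6 neurons and the striatum, had the largest positive estimate of the members. Its values were -0.062, 0.39, 0.26, 0.37 and 1.20 on replicates 2 to 6, with no value on replicate 1. It was above 0 on 4 of 5 arrays, and replicate 6 was far above the rest. The fit with 5 values gave 0.39 ± 0.19 (SE, n = 5; limma adjusted p = 0.921, unadjusted p = 0.0874) and, under the other reading, 0.22. It could not be fitted without replicates 3 and 4.

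Among the factors of the upper layers, too, no member passed the test. Cux1 and Cux2, homeodomain factors of upper-layer neurons, had estimates of -0.020 ± 0.13 and -0.21 ± 0.16 (SE, n = 6 each). Cux2 rests on replicate 3, where it lay at -0.92, and without replicates 3 and 4 it stood at -0.0066. Lmo4, a LIM-only cofactor, was above 0 on 5 of 6 arrays, from -0.13 on replicate 6 to 0.53 on replicate 4, with an estimate of 0.12 ± 0.13 (SE, n = 6). The activity-dependent factor Mef2c, which acts in neuronal survival and synapse number, lay at -0.75, -0.27, 0.59, 0.70, -0.095 and -0.30. Replicates 3 and 4 were above 0 and the other 4 arrays below, so the estimate of -0.020 ± 0.21 (SE, n = 6) became -0.35 ± 0.11 (SE, n = 4; limma adjusted p = 0.314) without that pair. Under the other reading Mef2c stood at 0.12, and at 0.16 ± 0.11 (SE, n = 4) without the pair.

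Pou3f3 was the most even member of the module. This POU factor, also called Brn1, acts with Pou3f2, or Brn2, in the migration and production of upper-layer neurons. Pou3f3 lay at 0.20, 0.20, 0.069, 0.33, 0.26 and 0.25 on replicates 1 to 6. It was thus above 0 on 6 of 6 arrays, the only one of the 34 member probes with 6 values for which this held, or 2.94% beside 1.06% of all probes with 6 values. It lay between the 60.9th and 79.3rd percentile of the values on each array, which is above the middle but not extreme. The estimate was 0.22 ± 0.10 (SE, n = 6; limma adjusted p = 0.921, 95% interval -0.027 to 0.46). Leaving out replicates 3 and 4, it was 0.23 ± 0.063 (SE, n = 4; limma adjusted p = 0.31), and under the other reading 0.062 ± 0.10 (SE, n = 6). Its relative Pou3f2 had -0.45, -0.18, 0.55, 0.92, -0.49 and -0.21, so that replicates 3 and 4 alone were above 0. Pou3f3 minus Pou3f2 was therefore 0.65, 0.38, -0.49, -0.59, 0.75 and 0.45 across the arrays, below 0 on replicates 3 and 4. Leaving out those 2 arrays, Pou3f2 stood at -0.33 ± 0.091 (SE, n = 4; limma adjusted p = 0.305) as deposited and at -0.016 ± 0.091 (SE, n = 4) under the other reading.

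The promoter windows of 3 members with 1 annotated start each are shown because Pou3f3 and the stathmin gene Stmn3 had the smallest unadjusted p as deposited and the neurofilament gene Ina had it under the other reading. Each runs from 250 bases before to 50 bases after the start (RefSeq, GRCm38.p6), 5′ to 3′ on the strand of the gene, with matches to the E-box CANNTG, the motif bound by bHLH factors such as Neurod1, in capitals.
Pou3f3, chr1:42695518-42695817, plus strand: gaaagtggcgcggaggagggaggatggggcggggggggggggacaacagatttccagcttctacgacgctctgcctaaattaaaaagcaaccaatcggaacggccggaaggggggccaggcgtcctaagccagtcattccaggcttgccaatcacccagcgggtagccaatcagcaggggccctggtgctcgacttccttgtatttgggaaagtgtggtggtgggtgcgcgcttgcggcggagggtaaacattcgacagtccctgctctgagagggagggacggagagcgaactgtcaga
Stmn3, chr2:181314451-181314750, minus strand: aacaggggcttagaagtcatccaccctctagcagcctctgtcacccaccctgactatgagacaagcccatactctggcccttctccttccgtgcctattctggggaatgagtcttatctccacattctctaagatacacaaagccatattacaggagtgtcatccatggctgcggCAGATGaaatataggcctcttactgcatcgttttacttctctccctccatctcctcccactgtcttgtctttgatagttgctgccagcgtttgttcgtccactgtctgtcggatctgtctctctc
Ina, chr19:47014431-47014730, plus strand: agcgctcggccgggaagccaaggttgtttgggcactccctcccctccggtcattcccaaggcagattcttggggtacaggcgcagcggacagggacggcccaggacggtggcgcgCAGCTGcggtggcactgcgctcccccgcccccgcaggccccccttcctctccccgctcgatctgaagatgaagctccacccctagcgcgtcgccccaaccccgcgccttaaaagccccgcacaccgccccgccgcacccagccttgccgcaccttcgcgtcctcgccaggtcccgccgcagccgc

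The E-box reads the same on both strands. It was found once in the Stmn3 window and once in the Ina window, and the Pou3f3 window held none. An E-box lay in 72.3% of all 32851 windows of this length and in 59.4% of the 32 windows of 24 member genes with an entry. The match in the Stmn3 window is CAGATG, a form bound by Neurod factors. CAGATG or its complement CATCTG, each also a case of CANNTG, was in 21.9% of the member windows and in 17.2% of all windows. The octamer ATTTGCAT or its complement ATGCAAAT, the motif of POU factors, was in 0 of the 32 member windows and in 1.74% of all windows.

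The 3 Neurod genes differed from one another by array. Neurod1, a bHLH factor of early differentiation, lay at 0.0082, -0.094, -1.40, 0.049, 0.42 and -0.0024 on replicates 1 to 6. Neurod2 had 0.055, 0.28, -1.04, 0.059, -0.034 and -0.13. Both were lowest on replicate 3, and elsewhere Neurod1 reached 0.42 on replicate 5 and Neurod2 0.28 on replicate 2. Neurod6, found in nearly all cortical projection neurons, had 0.38, 0.37, -0.78, -0.65, -0.00019 and -0.37, so replicates 3 and 4 were both low and replicates 1 and 2 both high. The 3 estimates were -0.17 ± 0.20 for Neurod1, -0.14 ± 0.18 for Neurod2 and -0.18 ± 0.19 for Neurod6 (SE, n = 6 each). Leaving out replicates 3 and 4, they stood at 0.083, 0.043 and 0.095. Under the other reading they were 0.33 ± 0.20, 0.10 ± 0.18 and -0.17 ± 0.19 (SE, n = 6 each). Without the pair that reading gave 0.13, -0.12 and -0.28, so whether the 3 genes share a sign depends on the reading.

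Sox11, a SoxC factor that turns on pan-neuronal genes, and Zbtb20, a zinc finger factor of the hippocampal field, were higher with the mutant in cy3 than in cy5. Sox11 had 0.31, -0.26 and -0.47 on replicates 4 to 6 and 0.084, 0.14 and 0.40 on replicates 1 to 3. Zbtb20 had -0.13, -0.036 and -0.45 on replicates 4 to 6 and 0.22, 0.38 and -0.24 on replicates 1 to 3. Neither set of values separated fully between orientations. Their estimates of 0.033 and -0.043 as deposited became -0.17 and -0.16 under the other reading, each with an SE of 0.13 to 0.14 and a limma adjusted p of 0.943 or above. Lhx5, a LIM homeodomain factor of Cajal-Retzius cells and the cortical hem, lay at 0.35, 0.235, -1.11, -0.22, 0.10 and -0.10 across the arrays, lowest on replicate 3. The 17 factors together had estimates from -0.24 for Sox5 to 0.39 for Foxp2.

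In the cytoskeletal and neurite group most genes shared a sign. In the fit of all arrays this sign turned with the reading, as it did in the factors. Without replicates 3 and 4 the sign of most genes turned in the factors only. Of 17 factors 12 lay below 0 as deposited, or 70.6%, and 13 above 0 under the other reading, or 76.5%. Without replicates 3 and 4, 11 of 16 factors lay above 0 as deposited and 4 of 16 under the other reading. The cytoskeletal counts were as follows. As deposited 12 of 14 genes lay below 0, or 85.7% beside 56.9% of all genes, with a median of -0.15, which was -0.11 with median centring, -0.063 with scaled arrays and 0.014, with 8 of 14 genes above 0, with array weights. With the sign turned 10 of 14 lay above 0, or 71.4% beside 53%, with a median of 0.21. Without replicates 3 and 4 the median was 0.035 as deposited and 0.15 under the other reading, with 9 and 10 of 14 genes above 0, or 64.3% beside 63.1% and 71.4% beside 48% of all genes.

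The neurofilament genes did not move as 1 unit. Ina, or alpha-internexin, is the intermediate filament protein of early neurons. It lay at 0.16, 0.60 and 0.69 with the mutant in cy5 and at -0.74, -0.38 and -0.22 with the mutant in cy3. No array of one orientation overlapped the other, and after turning replicates 1 to 3 it was above 0 on 6 of 6 arrays, the only one of 34 member probes to be so, or 2.94% beside 1.67% of all probes. As deposited the 2 orientations cancelled to 0.017 ± 0.13 (SE, n = 6). Turned, Ina had 0.46 ± 0.13 (SE, n = 6; limma unadjusted p = 0.00945, adjusted p = 0.972, 95% interval 0.15 to 0.77). On the 4 arrays other than 3 and 4 that value was 0.60 ± 0.088 (SE, n = 4; limma adjusted p = 0.146).

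Nefm, the medium neurofilament subunit, ran the opposite way. With the mutant in cy5 it had -0.34 and -0.24, replicate 4 having no value, and with the mutant in cy3 it had 0.12, 0.21 and 0.017. Its orientations did not overlap either, with cy5 below cy3, and it was the only one of the 37 tested member probes with that order, or 2.7% beside 7.02% of all probes. The other reading put it at -0.20 ± 0.13 (SE, n = 5; limma adjusted p = 0.972), against -0.089 as deposited. Nefh, the heavy subunit, stayed between -0.14 and 0.20 on 5 arrays. Nefl, the light subunit, had -0.078, -0.54 and 0.77 on replicates 1, 5 and 6.

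Among the growth cone, adhesion and migration genes, Crmp1, L1cam and Dcx had the order of Ina, while Gap43, Dpysl3, Cdk5r1 and the 3 Ncam1 probes did not separate between orientations. Crmp1, a collapsin response mediator that links semaphorin signals to microtubules, had -0.13, 0.33 and 0.34 with the mutant in cy5 and -0.65, -0.24 and -0.67 with the mutant in cy3. The 2 orientations did not overlap. Crmp1 had -0.17 ± 0.13 (SE, n = 6) as deposited and 0.35 ± 0.13 (SE, n = 6; limma unadjusted p = 0.0285, adjusted p = 0.972) under the other reading. L1cam, an adhesion molecule of growing axons, had -0.043, 0.57 and 0.37 in cy5 and -0.21, -0.15 and -0.61 in cy3. Again no value overlapped, and the estimates were -0.014 ± 0.13 as deposited and 0.31 ± 0.13 under the other reading (SE, n = 6 each). Dcx, the doublecortin gene of migrating neurons, was the last cytoskeletal gene with this order, at -0.18, 0.35 and 0.12 in cy5 and -0.23, -0.25 and -1.27 in cy3.

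With Pou3f3, these 4 cytoskeletal genes made up the 5 of 37 member probes whose cy5 values all lay above their cy3 values. This is 13.5% beside 8.89% of 4958 probes, and 4 of 16 cytoskeletal probes, or 25.0%. The counts are too few to set the module apart from the array as a whole. Dcx stood at -0.24 ± 0.17 as deposited and 0.34 ± 0.17 under the other reading (SE, n = 6 each). Its deposited estimate rests mainly on replicate 3, since it was -0.070 without that array, -0.17 without replicate 4 and -0.00025 without both.

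Gap43, the growth-associated protein of axon tips, lay at -0.12, 0.052, -1.23, -0.28, 0.67 and 0.080 on replicates 1 to 6. Cdk5r1 encodes p35, the activator of the kinase Cdk5 in migrating neurons, and had -0.011, 0.12, -1.05, -0.52, 0.35 and 0.81. Both were highest on replicate 5 or 6 and lowest on replicates 3 and 4. Cdk5r1 stood at -0.050 ± 0.23 (SE, n = 6) in the fit of all arrays and at 0.32 ± 0.10 (SE, n = 4; limma adjusted p = 0.319) without replicates 3 and 4. Dpysl3, another collapsin response mediator, had 0.077, 0.16, -0.77, -0.66, -0.063 and -0.062, again lowest on replicates 3 and 4.

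Ncam1, the neural cell adhesion molecule, was measured by 3 probes, which tell how far probes of 1 gene can differ here. Probe 1088 had -0.22, -0.14, -1.10, -0.20, 0.12 and 0.38. Probe 6630 had -0.29, -0.24, -1.18, -0.52, 0.65 and 0.18. Probe 6661 had 0.13, 0.11, -1.29, -0.43, 0.20 and 0.024. All 3 were lowest on replicate 3, but probe 6661 had the opposite sign to the other two on replicates 1 and 2. Estimates were -0.19, -0.23 and -0.21 as deposited and 0.29, 0.34 and 0.14 under the other reading, with SE of 0.17 to 0.22. Without replicates 3 and 4 the other reading gave 0.22, 0.34 and -0.0047.

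**Figure D2:**
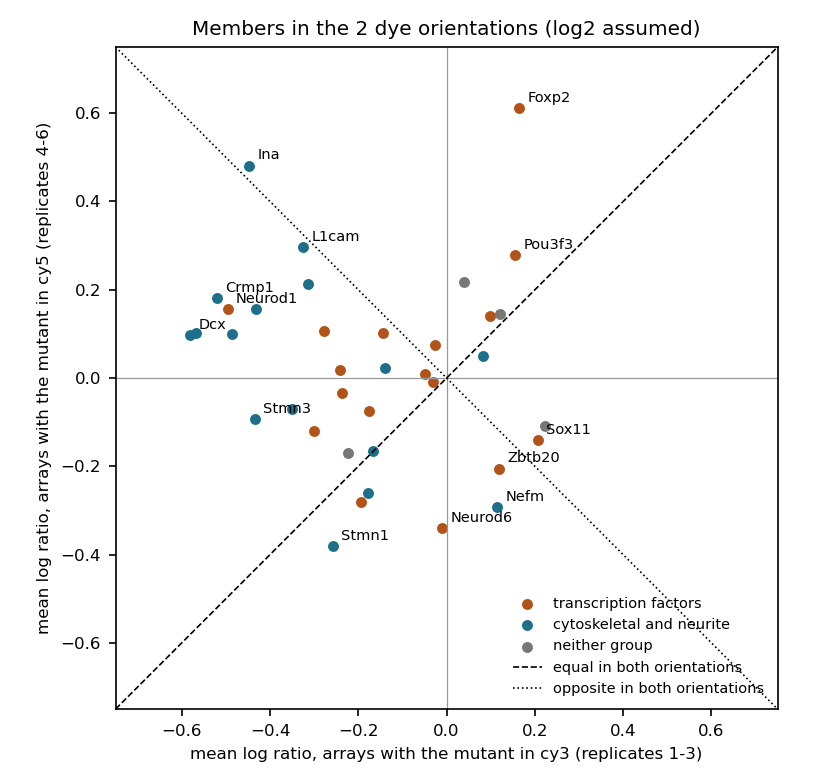
Mean log ratio of each tested member probe with the mutant in cy5 (y axis, replicates 4 to 6) against that with the mutant in cy3 (x axis, replicates 1 to 3), coloured by group. Points near the dashed line had equal means in both orientations and points near the dotted line had opposite ones; Ina, at 0.48 and -0.45, lies near the dotted line, while Pou3f3, at 0.28 and 0.16, lies above 0 on both axes.

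Microtubule genes gave the lowest deposited estimates of the module. Stmn3, a stathmin that binds tubulin in neurons, had -0.36, -0.26, -0.68, -0.095, 0.14 and -0.32 on replicates 1 to 6 and was below 0 on 5 of 6 arrays. Its estimate of -0.26 ± 0.12 (SE, n = 6; limma unadjusted p = 0.0679, adjusted p = 0.921) was the one with the smallest p among members, and stood at -0.20 ± 0.10 (SE, n = 4) without replicates 3 and 4 and at 0.17 ± 0.12 (SE, n = 6) under the other reading. The stathmin Stmn1, which destabilises microtubules, had 0.29, 0.15, -1.21, -0.77, -0.071 and -0.30. The difference between the 2 stathmins changed sign across the arrays and was not tested. Stmn3 minus Stmn1 was -0.65, -0.41, 0.53, 0.68, 0.21 and -0.020 on replicates 1 to 6. Stmn1 had the lowest deposited estimate of the module at -0.32 ± 0.22 (SE, n = 6), which was 0.017 ± 0.077 (SE, n = 4) without replicates 3 and 4. With the sign turned Stmn1 stood at -0.062 ± 0.22 (SE, n = 6), and at -0.20 ± 0.077 (SE, n = 4; limma adjusted p = 0.214) without the pair.

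Map2, the microtubule protein of dendrites, lay at 0.25, 0.16, -0.92, -0.33, 0.054 and -0.22. Map1b, which acts in growing axons, stayed between -0.27 and 0.12 on 6 arrays, with an estimate of -0.059 ± 0.11 (SE, n = 6). Map2 thus followed the wide swing of replicates 3 and 4, while Map1b was among the steadiest members, second to Pou3f3 in standard deviation over 6 arrays.

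**Figure D3:**
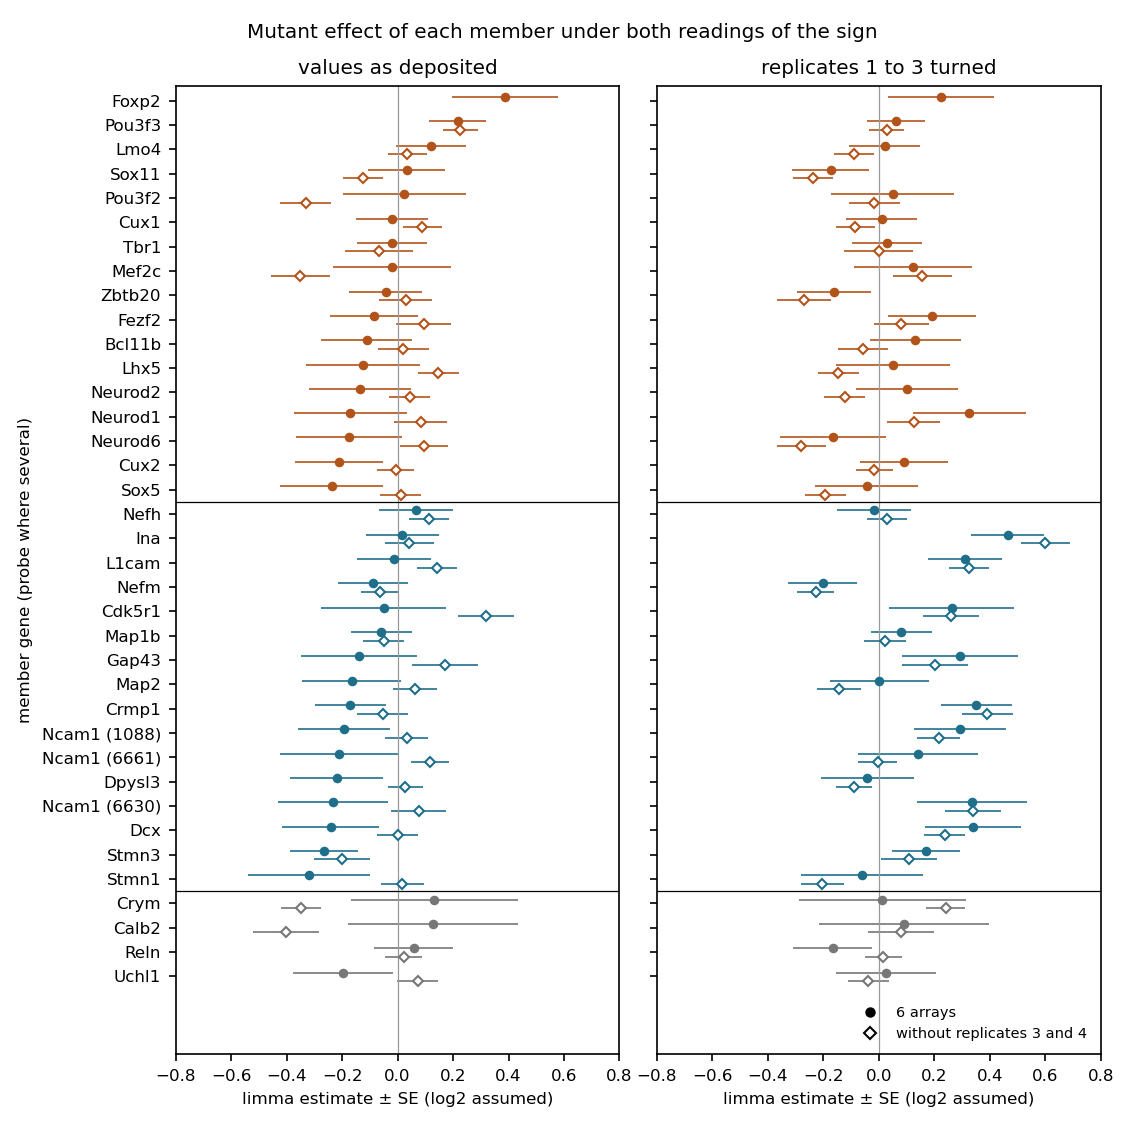
Limma estimate ± SE of each tested member probe as deposited (left) and with replicates 1 to 3 turned (right), from 6 arrays (filled circles) and without replicates 3 and 4 (open diamonds). On the left the cytoskeletal genes centre on -0.15 with 6 arrays and 0.035 without the pair; on the right they centre on 0.21 and 0.15, with Ina farthest to the right.

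The comparison the module was set up for is that of transcription factors with cytoskeletal and neurite genes on the same array. As deposited the factors had a median estimate of -0.043 and the cytoskeletal genes one of -0.15, a difference of 0.11. The other reading gave medians of 0.051 and 0.21, a difference of -0.16. The difference between group medians was 0.14, 0.25, 0.34, 0.24, -0.17 and -0.25 on replicates 1 to 6. The factors were thus above the cytoskeletal genes on all 3 arrays with the mutant in cy3 and on replicate 4, and below them on replicates 5 and 6. Over 6 arrays this is 0.091 ± 0.24 (SD, n = 6) as deposited, with 4 arrays above 0 and 2 below. With replicates 1 to 3 turned it is -0.15 ± 0.20 (SD, n = 6), with 1 array above 0 and 5 below. In each reading the mean is smaller than the SD between arrays, which describes single arrays and is not the error of that mean. No test was made because the members were chosen with earlier results known.

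On replicate 3 the factors had a median of -0.44 and the cytoskeletal genes -0.77, with 6 of 17 factors and 1 of 13 cytoskeletal genes above 0, beside 41.5% of all genes. On replicate 6 the order was reversed, with 4 of 17 factors and 9 of 15 cytoskeletal genes above 0, beside 49.6% of all genes. On replicates 1, 2, 5 and 6 alone, values of replicates 5 and 6 both lay above those of replicates 1 and 2 for 1 of 16 factors and 8 of 16 cytoskeletal probes, beside 27.6% of all probes. They both lay below for 8 of 16 factors and 4 of 16 cytoskeletal probes, beside 32% of all probes. Without replicates 3 and 4 the median difference was -0.0037 as deposited and -0.22 under the other reading.

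**Figure D4:**
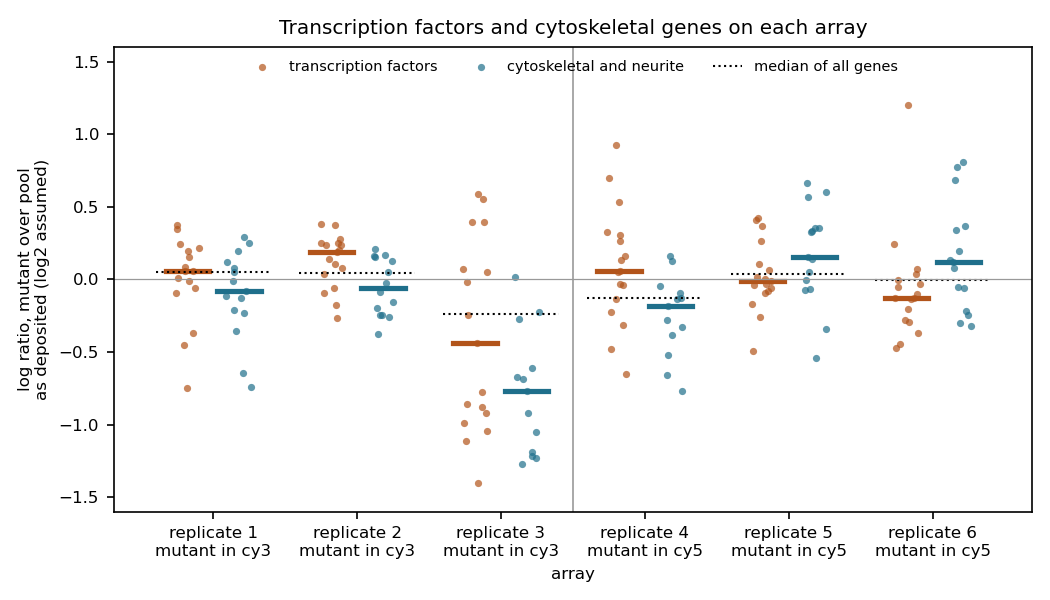
Log ratio of each measured gene (points) on each array, transcription factors left of cytoskeletal and neurite genes, with the median of each group as a bar and that of all genes as a dotted line. The bar of the factors is above that of the cytoskeletal genes on replicates 1 to 4 and below it on replicates 5 and 6, by 0.17 and 0.25.

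Calb2 and Crym, which belong to neither group, had the largest standard deviations over the arrays of all members, at 0.85 and 0.83. Calb2, or calretinin, a calcium-binding protein of Cajal-Retzius cells and interneurons, had -0.57, -0.40, 1.08, 1.29, -0.61 and -0.028 on replicates 1 to 6. Crym, a thyroid hormone-binding crystallin of deep-layer neurons, had -0.69, -0.49, 1.54, 0.65, -0.085 and -0.13. In both, replicates 3 and 4 were above 0 and the other 4 arrays below. Their estimates of 0.13 ± 0.31 for Calb2 and 0.13 ± 0.30 for Crym (SE, n = 6 each) therefore became -0.40 ± 0.12 and -0.35 ± 0.071 (SE, n = 4 each) without that pair, with limma adjusted p of 0.31 and 0.3. Under the other reading Crym stood at 0.012, and at 0.24 ± 0.071 (SE, n = 4) without the pair. Calb2 then stood at 0.089, and at 0.081 ± 0.12 (SE, n = 4) without the pair.

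Reln, the secreted guide of migrating neurons from Cajal-Retzius cells, did not follow Calb2. It lay at 0.66 on replicate 3, at -0.40 on replicate 4 and between -0.038 and 0.094 on the other 4 arrays, with an estimate of 0.058 ± 0.14 (SE, n = 6). Uchl1, an abundant ubiquitin hydrolase of neurons, had -0.89 and -0.58 on replicates 3 and 4 and lay between -0.071 and 0.16 elsewhere.

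Replicates 3 and 4 set members apart about as often as they did all probes. Both values lay below all others of the same probe for 12 of 35 member probes with values on both arrays, or 34.3% beside 40.2% of all probes, and both lay above all others for 5 of 35, or 14.3% beside 16.5%. The 5 were Calb2, Crym, Mef2c, Pou3f2 and Sox11, of which 0 were cytoskeletal, and the 12 included 7 of 14 cytoskeletal probes. Leaving this pair out, 6 of 36 member probes had an unadjusted p under 0.05 in limma, which is 16.7% beside 13.6% of all probes, and 0 passed the adjusted threshold beside 0.0212% of all probes. These 6 were Pou3f3 and Cdk5r1 with positive estimates, beside 8.04% of all probes, and Crym, Pou3f2, Calb2 and Mef2c with negative ones, beside 5.54%. Under the other reading 12 of 36 did so, or 33.3% beside 23.4%, of which 8 were cytoskeletal probes, and 0 passed beside 0% of all probes. Of the 12 probes 7 had positive and 5 negative estimates, beside 503 and 604 of 4728 probes. The cytoskeletal ones were 6 above 0, with Ncam1 probes 1088 and 6630 among them, and 2 below.

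The other genes of neuron differentiation and migration gave no call either. Of 48 such genes outside the module 38 were tested, 14 above and 24 below 0, or 63.2% below beside 56.9% of all genes, with a median of -0.11. The other reading put 20 above and 18 below 0, or 52.6% above beside 53% of all genes. Without replicates 3 and 4 there were 24 above and 14 below, or 63.2% above beside 63.1%, with a median of 0.027. As deposited, limma called 0 of them, beside 0% of all probes. One of them, or 1, had an unadjusted p below 0.05 in limma, where the share over all probes was 1.77%. Dab1, the adaptor of the reelin receptors, was that one, at 0.58 ± 0.21 (SE, n = 6; limma adjusted p = 0.921), with -0.56 on replicate 1 and 0.31 to 1.38 on the others. Bcl11a, a zinc finger factor of cortical neurons, followed at 0.28, and Elavl3 and Ebf1 were the lowest by p at -0.42 and -0.26. These 3 signs changed under the other reading, with -0.11 for Bcl11a, 0.36 for Elavl3 and 0.022 for Ebf1, while Dab1 stood at 0.42. On replicates 1 to 6 the list had medians of 0.026, 0.058, -0.60, -0.33, 0.012 and -0.091. They were lowest on replicates 3 and 4, as for the cytoskeletal genes and for all genes, whose medians there were -0.24 and -0.13.

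Markers of other cells were set beside the module, and their part in its values was not tested. Array medians took every gene with a value on that array, in the fit or not, so the genes differ between arrays. Progenitor genes, 15 of 16 tested, had array medians from -0.27 on replicate 3 to 0.20 on replicate 1. Meninges and vessel genes, 10 of 13 tested, had medians of -0.40, -0.030, -0.082, -0.092, 0.35 and 0.34 on replicates 1 to 6. Like the cytoskeletal genes they were highest on replicates 5 and 6, with values for 11 genes there against 7 on replicate 3. Interneuron and ganglionic eminence genes, 9 of 14 tested, ran from -0.46 over 7 genes on replicate 1 to 0.24 over 11 genes on replicate 6. Of microglia genes 4 of 7 were tested, with a median of 1.24 over 3 genes on replicate 4 and -0.50 to 0.26 elsewhere. Of erythroid genes 3 of 8 were tested, with medians from -0.27 to 0.25. In these lists 0 genes passed in limma, and 4 of 43 probes had an unadjusted p under 0.05 as deposited, or 9.3% beside 1.77% of all probes. The 4, named after their values were seen, were Eomes of the progenitors, Dlx2 of the interneurons and Col5a2 and Dcn of the meninges and vessels. Under the other reading the interneuron, the meninges and vessel and the microglia lists had 1 such probe each. The progenitor and erythroid lists had 0, where the share over all probes was 4.6%.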

How the data were processed

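The deposited values are log ratios of the 2 channels of each array, read here as log2 ratios made by the authors. The processing, the log base and the direction were not given in the sources used here, while each array's mean lay within 0.01 of 0. Probes were named through the platform annotation (6269 probes with 1 gene symbol, 6 with several and 581 with none). The targeted gene is not reported here.

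A linear model was fitted per probe (limma 3.58.1, functions lmFit and eBayes, R 4.3.3), for the 4958 probes with 2 or more values in both dye orientations. The mutant effect was the intercept and the dye orientation a term. P-values are two-sided and were adjusted over all probes by Benjamini-Hochberg, with 0.05 as the threshold. Missing values were left out, not imputed. A gene's estimate is the mean over its probes. All members with a probe are named, and in the list of other differentiation genes the 2 with the smallest p in each direction. The fit was tested on simulated data with independent noise. Biological replicates is the labels' term for the mutants. The members, groups and lists were chosen with earlier results of these data known. Alternatives tried were a fit lacking the dye term, arrays centred on the median with and without scaling, probes with 6 values, the turned sign, array weights, leaving out each replicate or replicates 3 and 4, averaging per gene and a threshold of 0.1. Leaving out replicates 3 and 4 under the other reading was added after seeing the data. Dim probes could not be removed, since intensities were not used here.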

Additional observations from a re-analysis of the deposited data

Results flagged for a closer look

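Of 42 sets of 4 to 6 array values examined, 8 had an array whose gap to the nearest other exceeded Dixon's 95% limit. Chance gives about 1 in 20 for separate sets whose arrays spread equally. That rate does not hold here, because the arrays differ in spread and the sets share arrays and probes. All 8 lay on replicate 3, whose values spread the most. For single probes these were Neurod1 at -1.40, Dcx at -1.27, Neurod2 at -1.04, Bcl11b at -0.88 and Fezf2 at -0.86. For medians on that array they were the whole module at -0.68, the cytoskeletal and neurite genes at -0.77 and the genes of neither group at 0.87. Without replicates 3 and 4 the estimates were 0.083 for Neurod1, -0.00025 for Dcx, 0.043 for Neurod2, 0.021 for Bcl11b and 0.095 for Fezf2, each below 0 with 6 arrays. The median estimate of the genes of neither group was -0.16 without the pair, against 0.093 with 6 arrays.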

How the results depend on the processing

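No member passed at 0.05 or 0.1 under any of the alternatives run. Over all probes, array weights gave 2 passing probes and leaving out replicates 3 and 4 gave 1, against 0. The other reading moved the cytoskeletal median to 0.21 and the difference between factors and cytoskeletal genes to -0.16, or -0.22 also without replicates 3 and 4. Array weights gave 0.014 for the cytoskeletal median and 0.021 for the difference. Leaving out each replicate kept the cytoskeletal median between -0.25 and -0.035 and the difference between 0.0025 (without replicate 4) and 0.16. The module's median then ran from -0.16 to -0.027, and the factors' median from -0.14 to 0.048, above 0 without replicate 3 only. Of the member probes shared with the fit of 6 arrays, 24 of 37 changed sign under the other reading, 22 of 37 with array weights, 23 of 36 without replicates 3 and 4, 19 of 36 without replicate 3 and 2 to 5 without another single replicate. Median centring changed 4 of 37 signs and scaling 11, while complete probes, no dye term and averaging per gene changed 0. The array weight of replicate 3 was 0.10 and of replicate 4 0.31, the others ranging from 1.40 to 4.01. No paired analysis was possible because all mutants face 1 pool. The number of arrays and unknown brightness limit the precision.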
